A study of Mus musculus with 12 samples.

Results

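The Toll-like receptors Tlr1, Tlr2, Tlr3, Tlr4, Tlr6, Tlr7 and Tlr9, their adaptor Myd88, the co-receptor Cd14 and the amplifying receptor Trem1 were followed across tumor RNA of mice given IL-27 and IL-18 therapies. These 10 genes were taken by name from a table of 55450 genes, and all 10 were among the 20417 genes with enough counts to be tested. The tumors were subcutaneous TC2R, the TRAMP-C2 mouse prostate adenocarcinoma line with an activated H-ras added by lentivirus, grown in C57BL/6 males of 8 to 10 weeks. Every mouse received a plasmid by sonoporation into muscle on day 4. The control group received the empty vector pMCS, the IL-27 group a plasmid for IL-27 with a non-specific peptide at its end, and the 27pepL group a plasmid for IL-27 carrying the pepL peptide, which targets IL-6Rα. The 27→18 and 27pepL→18 groups received the same 2 plasmids followed by recombinant IL-18 injected into the tumor on day 10, and the IL-18 group received pMCS and that injection. Tumors were taken on day 26, and each of the 12 libraries, 2 per group, pooled 4 to 6 tumors. Library totals ran from 49844915 to 76620862 counts. The labels do not say whether both libraries of 1 group were made from different mice. Each group held 4 to 6 mice, the same range as the tumors pooled per library, so its libraries probably share mice. The p-values therefore reflect how far libraries differ and may not measure how far mice differ. What part of that spread is technical was not tested.

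Toll-like receptors recognize molecules of microbes and of damaged cells. Tlr1, Tlr2, Tlr4 and Tlr6 act at the cell surface, where Tlr2 pairs with Tlr1 or Tlr6 to bind lipoproteins and Tlr4 binds lipopolysaccharide handed over by Cd14. Tlr3, Tlr7 and Tlr9 sit in endosomes and recognize nucleic acids. All of these receptors except Tlr3 signal through Myd88, which also serves the receptors of IL-1 and IL-18. Trem1 is carried by neutrophils and by some monocytes and macrophages, and amplifies the inflammatory output of the Toll-like receptors. In tumors most of these genes are read mainly from myeloid cells, and in bulk RNA fewer cells of a type and less RNA per cell cannot be told apart. The study asked which immune signaling pathways and regulators, Toll-like receptors, MyD88 and TREM1 among them, differ between these therapies and the empty vector.

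Tlr1 and Tlr6 are neighbors on chromosome 5 (GRCm38, minus strand, Tlr1 at chr5:64924679-64933563 and Tlr6 at chr5:64952031-64960097), and the other members lie on chromosomes 3 (Tlr2), 4 (Tlr4), 8 (Tlr3), 9 (Tlr9 and Myd88), 17 (Trem1), 18 (Cd14) and X (Tlr7). The coding sequences of Tlr1 and Tlr6, of 2385 and 2418 bases, share a longest unbroken stretch of 229 bases letter for letter. Of the 21 pairs of the 7 receptors, the next was Tlr3 and Tlr4, whose longest shared stretch was 16 bases. Of all stretches of 50 bases in the Tlr1 coding sequence, 19.4% occur in Tlr6 as well. Fragments that lie wholly within shared sequence cannot be assigned by it. The values of this pair are therefore uncertain to the extent that the authors' counting split such fragments. The longest shared stretch lies in coding exon, at chr5:64925537-64925765 in Tlr1 and chr5:64953828-64954056 in Tlr6. It is shown from the GENCODE transcripts with its bases in capitals and 10 bases of each gene on either side in lower case.
Tlr1: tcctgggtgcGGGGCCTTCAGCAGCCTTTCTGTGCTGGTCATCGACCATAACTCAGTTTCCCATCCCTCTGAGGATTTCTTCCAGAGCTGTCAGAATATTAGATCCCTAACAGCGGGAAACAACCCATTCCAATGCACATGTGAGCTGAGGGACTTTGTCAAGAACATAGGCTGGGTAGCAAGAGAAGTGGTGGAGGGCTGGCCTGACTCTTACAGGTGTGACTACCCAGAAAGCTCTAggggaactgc
Tlr6: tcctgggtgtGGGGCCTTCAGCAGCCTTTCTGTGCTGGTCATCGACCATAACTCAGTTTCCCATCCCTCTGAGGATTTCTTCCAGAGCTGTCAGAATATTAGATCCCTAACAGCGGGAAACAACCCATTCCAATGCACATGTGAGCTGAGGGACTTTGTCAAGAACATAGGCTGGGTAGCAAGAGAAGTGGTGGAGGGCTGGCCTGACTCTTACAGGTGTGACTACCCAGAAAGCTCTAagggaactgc

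None of the 10 genes passed an adjusted p of 0.05 in edgeR's quasi-likelihood test in any comparison with pMCS. Adjustment was over all tested genes by the Benjamini-Hochberg method. The share of all tested genes that passed was 0% in IL-18 and 0% in IL-27. It was 0.235% in 27→18, 0.255% in 27pepL and 0.23% in 27pepL→18. Every gene that passed in 27→18, 27pepL or 27pepL→18 was lower than in pMCS. In each of these groups they included 5 of 7 tested hepatocyte markers. The mean of the 4 groups given a form of IL-27 against the mean of pMCS and IL-18 gave 0 of the 10, with 0.519% of all genes. A test for any difference among the 6 groups gave 0 of the 10, with 0.269% of all genes. At the threshold of the study, an unadjusted p under 0.05 and more than a 2-fold change, 0 of the 10 passed in each of these comparisons as well. The share of all genes passing there was 2.48% in IL-18, 4.22% in IL-27, 2.31% in 27→18, 3.27% in 27pepL, 2.98% in 27pepL→18 and 3.07% for the IL-27 forms together. The smallest unadjusted p among the 10 belonged to Cd14 in each of the 5 comparisons, and the only one under 0.05 was that of Cd14 in IL-27. By DESeq2, and by edgeR's exact test in the 5 comparisons with pMCS, 0 of the 10 passed after adjustment too, and DESeq2 put 1 gene, Tlr1 in IL-27, past the threshold of the study. The 5 comparisons share the 2 pMCS libraries and are therefore not independent of each other.

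Per kilobase of exon, Myd88 and Cd14 were the most abundant of the 10, with medians over the 12 libraries of 18.8 and 18.7 CPM (counts scaled to a common library size) per kilobase. Tlr2 followed at 7.24, then Tlr4 at 1.95, Tlr1 at 1.06, Tlr3 at 0.936 and Tlr7 at 0.715. Trem1, at 0.448, Tlr6, at 0.421, and Tlr9, at 0.129, were the least abundant on this scale. The ranges of neighbors in this order overlapped over the libraries.

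**Figure D1:**
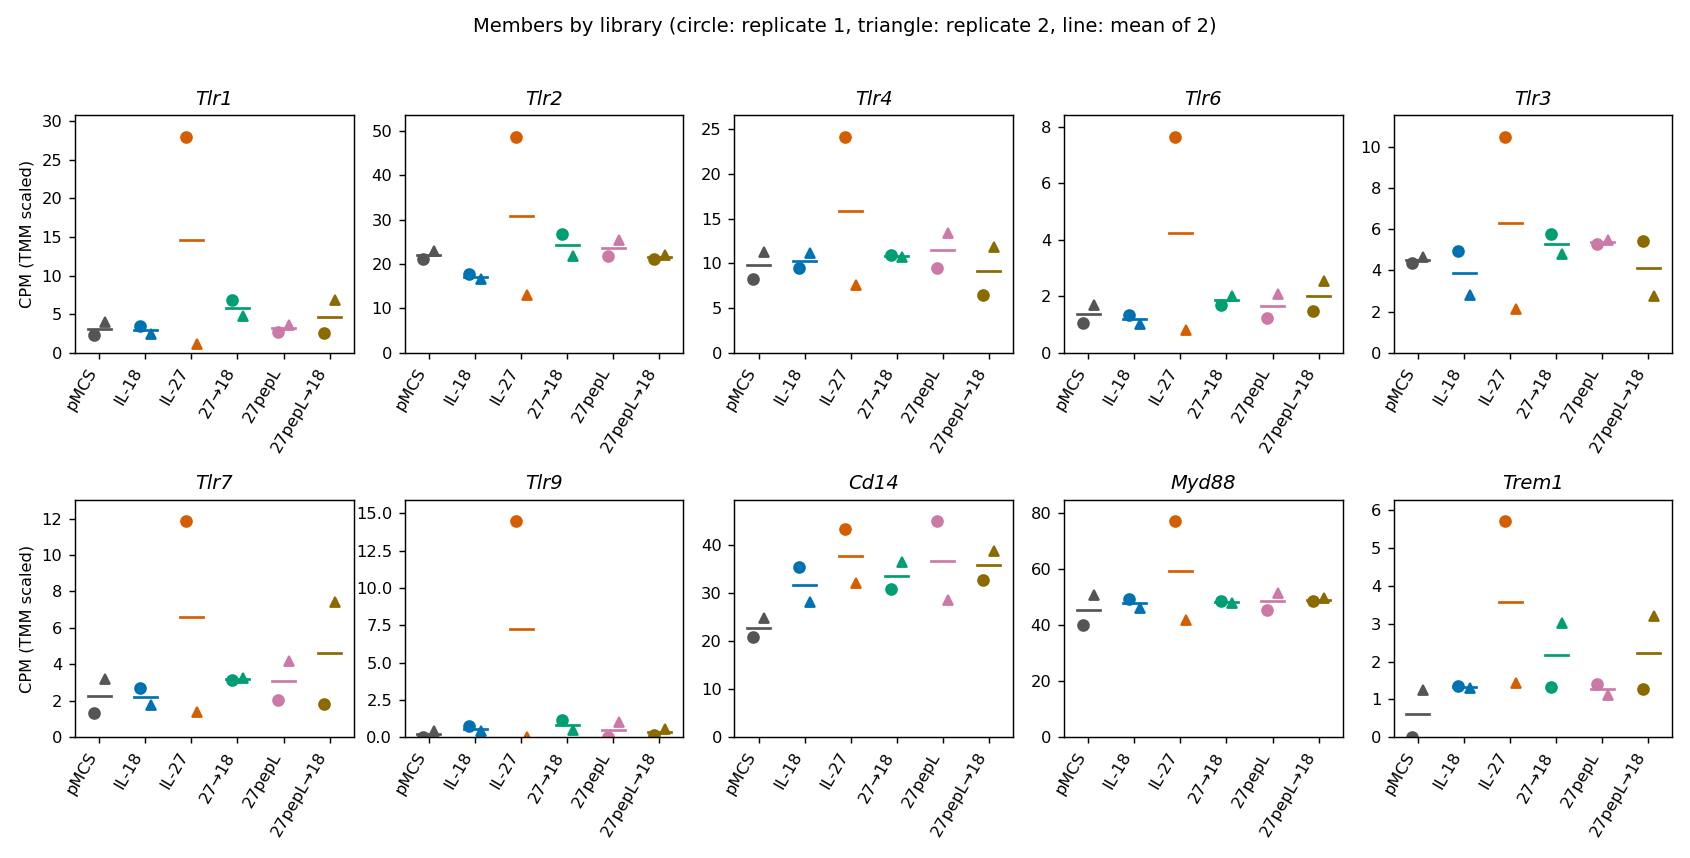
Each panel shows 1 gene in 12 libraries, with groups on the x axis and CPM scaled with TMM factors on the y axis, which starts at 0. Circles are replicate 1, triangles replicate 2 and lines the mean of the 2. IL-27 replicate 1 is the highest library for 9 of the 10 genes, while Cd14 is lowest in the 2 pMCS libraries at 20.8 and 24.7 CPM.

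Cd14, the co-receptor that hands lipopolysaccharide to Tlr4, was the member that differed most evenly between treated and control tumors. It read 20.8 and 24.7 CPM in pMCS, 35.3 and 28.1 in IL-18, 43.3 and 32.2 in IL-27, 30.8 and 36.4 in 27→18, 44.9 and 28.6 in 27pepL and 32.7 and 38.8 in 27pepL→18, each pair being replicate 1 and replicate 2. All 10 treated libraries lay above both pMCS libraries. It was the only one of the 10 genes with this order, which 0.999% of all tested genes had. The log2 fold change against pMCS was 0.73 in IL-27 (standard error 0.32, adjusted p = 1 by edgeR), a 1.66-fold difference that did not pass. In the other groups the log2 fold change was 0.48 in IL-18, 0.56 in 27→18, 0.69 in 27pepL and 0.65 in 27pepL→18, all at adjusted p = 1 by edgeR. The mean of the IL-27 forms stood 0.42 above that of pMCS and IL-18 on the log2 scale (standard error 0.20, adjusted p = 1 by edgeR). pMCS replicate 1 had the lowest summed level of macrophage markers of the 12 libraries (464 raw CPM, against 1073 in pMCS replicate 2), and the part of macrophage content in the low Cd14 of pMCS was not tested. As a share of the summed leukocyte markers Cd14 was 13.9% and 12.7% in pMCS, and 8 of the 10 treated libraries lay below both, with 2 above. As a share of macrophage markers it was 3.80% and 2.44% in pMCS, with 5 treated libraries below both and 1 above. The order of Cd14 by CPM was thus not kept relative to these markers. Relative to leukocyte markers, Tlr2, Tlr3, Tlr4 and Myd88 lay below both pMCS libraries in all 10 treated libraries. The same count was 9 for Tlr6, 6 for Tlr1, 5 for Tlr7 and 0 for Tlr9 and Trem1. Single libraries moved the fold changes of Cd14, to 0.33 in 27pepL without 27pepL replicate 1 and to 0.31 in IL-18 without IL-18 replicate 1. The adipocyte and muscle covariates moved the Cd14 fold change of 27→18 to 0.18.

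Trem1, the amplifying receptor of neutrophils and monocytes, was low throughout. It read 0 and 1.24 CPM in pMCS, 1.36 and 1.31 in IL-18, 5.71 and 1.43 in IL-27, 1.32 and 3.02 in 27→18, 1.42 and 1.12 in 27pepL and 1.27 and 3.19 in 27pepL→18. These are 0 and 72 counts in pMCS and 65 to 320 counts in the treated libraries. Of the 10 treated libraries, 9 lay above both pMCS libraries, but most by little, since 6 of those read between 1.27 and 1.43 CPM. The log2 fold change was 2.50 in IL-27 (standard error 1.42, adjusted p = 1 by edgeR), 1.08 in IL-18, 1.78 in 27→18, 1.01 in 27pepL and 1.83 in 27pepL→18. Without pMCS replicate 1, the library at 0, these values were 1.51 in IL-27, 0.10 in IL-18, 0.80 in 27→18, 0.03 in 27pepL and 0.84 in 27pepL→18. For the IL-27 forms together the difference was 1.24 (standard error 0.87, adjusted p = 1 by edgeR), and 0.75 without pMCS replicate 1. Neutrophil markers summed to 4.80 to 57.4 raw CPM over the libraries, with the highest in IL-27 replicate 1, as for Trem1. The part of neutrophil content in the Trem1 values was not tested.

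Tlr2, which binds lipoproteins as a pair with Tlr1 or Tlr6, was the most abundant of the surface receptors. It read 21.2 and 23.1 CPM in pMCS, 17.6 and 16.6 in IL-18, 48.7 and 12.9 in IL-27, 26.8 and 21.8 in 27→18, 21.9 and 25.5 in 27pepL and 21.2 and 22.0 in 27pepL→18. Both IL-18 libraries lay below both pMCS libraries, while the 2 IL-27 libraries were the highest and the lowest of the 12. Tlr1, the partner of Tlr2 for triacylated lipoproteins, read 2.25 and 4.01 CPM in pMCS, 3.52 and 2.46 in IL-18, 28.0 and 1.11 in IL-27, 6.77 and 4.71 in 27→18, 2.73 and 3.59 in 27pepL and 2.50 and 6.84 in 27pepL→18. Its IL-27 libraries were again the highest and the lowest of the 12, and both 27→18 libraries lay above both pMCS libraries. Tlr6, the partner for diacylated lipoproteins, read 1.04 and 1.68 CPM in pMCS, 1.35 and 1.02 in IL-18, 7.63 and 0.817 in IL-27, 1.70 and 2.02 in 27→18, 1.21 and 2.07 in 27pepL and 1.46 and 2.55 in 27pepL→18. Tlr6 thus had the same 2 extreme libraries as Tlr1, with which it shares coding sequence, but so did Tlr2 and Tlr3. Tlr4, the receptor of lipopolysaccharide, read 8.28 and 11.3 CPM in pMCS, 9.51 and 11.1 in IL-18, 24.2 and 7.59 in IL-27, 10.9 and 10.7 in 27→18, 9.49 and 13.4 in 27pepL and 6.40 and 11.9 in 27pepL→18. Apart from IL-27 replicate 1, every library of Tlr4 lay between 6.40 and 13.4 CPM.

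Among the endosomal receptors, Tlr3, which recognizes double-stranded RNA, read 4.38 and 4.63 CPM in pMCS, 4.96 and 2.79 in IL-18, 10.5 and 2.12 in IL-27, 5.79 and 4.79 in 27→18, 5.29 and 5.47 in 27pepL and 5.44 and 2.76 in 27pepL→18. Both 27→18 and both 27pepL libraries lay above both pMCS libraries, the lowest of these 4 reading 4.79 CPM against 4.63. Tlr7, which recognizes single-stranded RNA, read 1.30 and 3.20 CPM in pMCS, 2.71 and 1.75 in IL-18, 11.8 and 1.36 in IL-27, 3.13 and 3.23 in 27→18, 2.04 and 4.16 in 27pepL and 1.80 and 7.40 in 27pepL→18. Every treated group overlapped with pMCS for Tlr7. Tlr9, which recognizes unmethylated CpG DNA, read 0 and 0.397 CPM in pMCS, 0.746 and 0.387 in IL-18, 14.4 and 0 in IL-27, 1.12 and 0.50 in 27→18, 0 and 1 in 27pepL and 0.156 and 0.546 in 27pepL→18. IL-27 replicate 1 held 810 counts of Tlr9 and no other library more than 90, while 3 libraries held 0. In those 3 libraries 3 counts correspond to 0.0400 to 0.0602 raw CPM, the limit that a count of 0 allows if 1 count is 1 fragment. Since 1 fragment may stand for several counts, the limit may be higher.

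Myd88, the adaptor shared by most of these receptors and by the IL-18 receptor, varied least. It read 39.9 and 50.8 CPM in pMCS, 49.4 and 46.1 in IL-18, 76.8 and 41.7 in IL-27, 48.4 and 47.7 in 27→18, 45.3 and 51.5 in 27pepL and 48.3 and 49.6 in 27pepL→18. Apart from IL-27 replicate 1, all libraries lay between 39.9 and 51.5 CPM, and all but 2 treated libraries lay within the range of the pMCS pair. The 3 groups given IL-18, whose receptor uses Myd88, read 46.1 to 49.6 CPM.

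Counted over the 10 genes, both treated libraries lay above both pMCS libraries for 2 genes in IL-18 (19.3% of all tested genes), 2 in IL-27 (10.7%), 6 in 27→18 (12.3%), 2 in 27pepL (13.5%) and 2 in 27pepL→18 (14.1%). The 6 in 27→18 were Tlr1, Tlr6, Tlr3, Tlr9, Cd14 and Trem1. None of these 6 passed either threshold, and the genes were chosen with earlier results known, so the count is a description. In 27→18 the same order held for 9 of 10 macrophage markers, 5 of 8 leukocyte markers and 7 of 8 markers of skeletal muscle, and their part in this count was not tested. Both treated libraries lay below both pMCS libraries for 1 gene in IL-18, Tlr2 (19.4% of all tested genes), and for 0 in IL-27 (11.6%), 27→18 (11.5%), 27pepL (14.6%) and 27pepL→18 (15%).

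The 2 IL-27 libraries stood apart from each other. Replicate 1 was the highest of the 12 libraries for 9 of the 10 genes, Cd14 being the exception, and replicate 2 was the lowest or second lowest for 8. Tlr1 differed 25.1-fold between the 2 libraries, Tlr6 9.35-fold, Tlr7 8.74-fold and Tlr3 4.96-fold, whereas the 2 pMCS libraries differed 1.78-fold, 1.61-fold, 2.46-fold and 1.06-fold for the same genes. Cd14 and Myd88 differed least between the IL-27 libraries, 1.35-fold and 1.84-fold. The fitted log2 fold changes of IL-27 against pMCS were 2.21 for Tlr1 (standard error 1.11), 0.48 for Tlr2, 0.70 for Tlr4, 1.63 for Tlr6, 0.48 for Tlr3, 1.55 for Tlr7, 5.13 for Tlr9 (standard error 2.72) and 0.39 for Myd88, all at adjusted p = 1 by edgeR. Without IL-27 replicate 1 the sign of each of these 8 changed, to between -6.74 for Tlr9 and -0.10 for Myd88, while Cd14 read 0.52 and Trem1 1.18. Without IL-27 replicate 2, 7 of the 10 genes passed the threshold of the study and Tlr1 passed after adjustment (log2 fold change 3.15, adjusted p = 0.0471 by edgeR). The group is then the single library that stands apart, assumed to vary like the other groups, and over all genes 3.15 times as many passed the threshold of the study as with all libraries, and 432 passed after adjustment against 0.

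**Figure D2:**
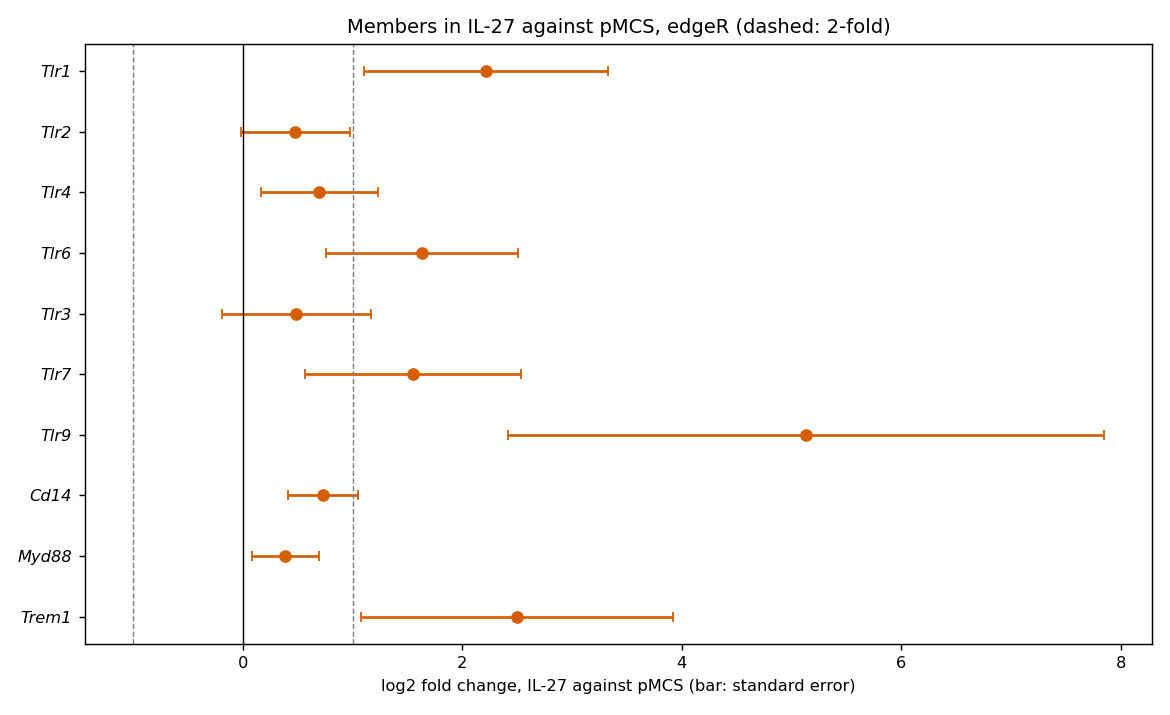
Points are log2 fold changes of IL-27 against pMCS from edgeR with their standard errors, for 2 libraries per group, and dashed lines mark 2-fold. Tlr9 has the largest value, 5.13, and the largest error, 2.72, while Cd14 has a small value, 0.73, with an error of 0.32.

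Markers of leukocytes and of fat were also high in IL-27 replicate 1. All 8 markers of leukocytes, all 10 of macrophages, all 7 of T cells and all 8 of adipocytes were highest in this library, against 4 of 10 for neutrophils and 4 of 7 for B cells. Leukocyte markers summed to 1353 raw CPM there and to 127 to 474 in the other 11 libraries, and adipocyte markers to 11713 against 65.8 to 1206. Of the tested genes with a median above 0 in the other libraries, 23.2% had IL-27 replicate 1 as their highest library and 20.7% read at least 2 times that median. Its ratio to that median was 36.3 for Tlr9, 7.95 for Tlr1, 5.22 for Tlr6, 4.38 for Tlr7, 4.32 for Trem1, 2.25 for Tlr4, 2.23 for Tlr2, 2.19 for Tlr3, 1.59 for Myd88 and 1.35 for Cd14. For summed leukocyte markers the ratio was 4.99 and for macrophage markers 4.23. As a share of the summed leukocyte markers, Tlr1 was highest in IL-27 replicate 1 (2.22%, median 1.42% over the 12 libraries) and so was Tlr9 (1.15%, median 0.16%). Cd14, Myd88, Tlr2 and Tlr4 had their lowest share there, at 3.44% for Cd14 against a median of 11.4%, and Trem1 a middle one, at 0.454% against 0.453%. Relative to leukocyte markers this library was thus high for Tlr1 and Tlr9 and low for the abundant members. Of the defining prostate markers, Pbsn was at 0 in all 12 libraries.

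**Figure D3:**
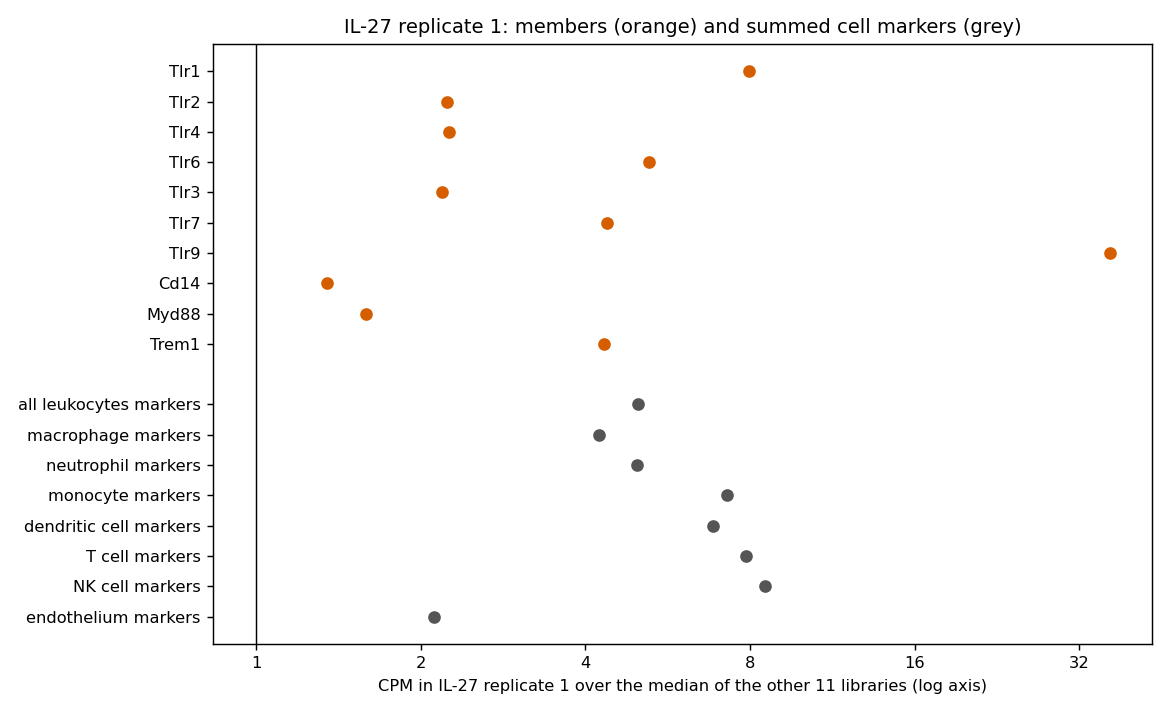
Each point is the level in IL-27 replicate 1 over the median of the other 11 libraries on a log axis, in TMM-scaled CPM for the 10 genes (orange) and in summed raw CPM for marker lists (grey). Tlr9 lies at 36.3 and Tlr1 at 7.95, and Cd14 lies lowest of the 10 genes at 1.35.

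The other genes of these pathways gave the same picture after adjustment, with 0 genes passing in any of the 8 lists and 5 comparisons by edgeR. At the threshold of the study, IL-27 had 2 of 4 other Toll-like receptors higher, 4 of 10 accessory and trafficking proteins, 2 of 21 adaptors and kinases, 1 of 12 brakes, 4 of 13 genes of the TREM family, 8 of 19 inflammatory targets and 7 of 16 other pattern recognition receptors, with 0 lower in each of these lists. Interferon genes switched on by endosomal receptors had 0 of 8. The same threshold was passed by 4.22% of all tested genes, by 8 of 10 macrophage markers and by 7 of 8 leukocyte markers. All of these markers had a higher fitted mean in IL-27, and their part in the lists was not tested. Both IL-27 libraries lay above both pMCS libraries for only 2 of 10 macrophage markers and 1 of 8 leukocyte markers. In the lists this held for 1 of 4 other Toll-like receptors, 1 of 10 accessory proteins and 8 of 21 adaptors and kinases. It held for 3 of 12 brakes, 6 of 13 TREM genes, 8 of 19 inflammatory targets and 4 of 16 other receptors. For interferon genes it was 1 of 8, and for all tested genes 10.7%. In 27→18 the same order held for 11 of 13 TREM genes, 11 of 19 inflammatory targets and 8 of 16 other receptors. It held there for 4 of 10 accessory proteins, 5 of 21 adaptors and kinases and 3 of 12 brakes. Other Toll-like receptors had it in 1 of 4, interferon genes in 1 of 8 and all tested genes in 12.3%. Macrophage markers had it in 9 of 10, and their part was not tested. The median log2 fold change in IL-27 was 1.91 over the inflammatory targets and 1.14 over the 10 genes above, against 0.00 over all tested genes. In 27→18, 4 of 19 inflammatory targets passed that threshold, with a list median of 1.01, against 0.47 over the 10 genes, and 2.31% of all tested genes passed. In 27pepL→18 the list gave 2 of 19 with a median of 1.08, and 2.98% of all genes passed. Macrophage markers had a median of 1.12 in 27→18 with 0 of 10 past the threshold, and skeletal muscle markers one of 5.97 with 6 of 8 past it.

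Il1b, the inflammatory cytokine IL-1β, read 3.34 and 5.03 CPM in pMCS and 59.1 and 7.07 in IL-27 (log2 fold change 2.98, standard error 0.79, adjusted p = 1 by edgeR). Both IL-27 libraries lay above pMCS, with replicate 1 far above replicate 2. The neutrophil chemokine Cxcl2 read 1.63 and 1.18 CPM in pMCS and 4.76 and 7.57 in IL-27, where replicate 2 was the higher library, unlike the 10 members, each of which read higher in replicate 1. Ikbke, a kinase of interferon signaling, read 2.34 and 3.25 CPM in pMCS and 32.8 and 9.24 in IL-27. Syk, a kinase that acts below ITAM adaptors such as the partner of Trem1, read 12.4 and 14.9 CPM in pMCS and 77.5 and 17.2 in IL-27. Clec4e, a receptor of mycobacterial glycolipids, read 1.44 and 0.881 CPM in pMCS and 11.2 and 2.17 in IL-27. Tlr13, a mouse receptor of bacterial ribosomal RNA, read 3.15 and 7.64 CPM in pMCS and 46.5 and 5.61 in IL-27, so that only replicate 1 lay above pMCS.

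Of the accessory proteins, Cd180, a relative of Tlr4 on B cells and myeloid cells, read 1.30 and 2.18 CPM in pMCS and 32.9 and 1.71 in IL-27. Ly86, the partner that Cd180 needs at the cell surface, read 2.63 and 9.35 CPM in pMCS and 86.9 and 4.36 in IL-27. In both, IL-27 replicate 2 lay within the pMCS range. Of the brakes, Dusp1, a phosphatase of MAP kinases, read 21.5 and 24.6 CPM in pMCS and 57.9 and 32.8 in IL-27, with both treated libraries above pMCS. Trem3, a mouse relative of Trem1, was at 0 in both pMCS libraries and read 1.28 and 0.204 CPM in IL-27. Each gene named here was taken for its small p within its list, and none passed after adjustment.

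Genes with the pattern most like each member over the 12 libraries were found by Pearson's r of log2 CPM. The search covered 11310 protein-coding genes with a mean log2 CPM of at least 1. It left out the members and genes with predicted or clone names. Among the closest to Tlr1 were H2-Q7 (r = 0.975, and 0.935 without IL-27 replicate 1) and Phf11d. The closest to Tlr2 were Tap1 (0.973 and 0.941), a peptide transporter of antigen presentation, Gbp3 and Tmem229b. Tlr4 was closest to Rab3il1 (0.958 and 0.926), Prkch and Xdh, and Tlr6 to Ms4a4b (0.980 and 0.938), Ly6c2 and Ifi211. Some of these, such as Gbp3 and Ifi211, are known as interferon-responsive genes. Tlr3 was closest to Xaf1 (0.889 and 0.818), Cxcl10 and Ppfia4, Tlr7 to Smpdl3a (0.961 and 0.947), Bst1 and Ms4a6c, and Tlr9 to Sparc (0.953 and 0.925), Aqp1 and Tifab. Myd88 was closest to Il27ra (0.981 and 0.947), a chain of the IL-27 receptor, Prcp and Irf9, and Cd14 to Neu1 (0.922 and 0.906), Clk3 and Ccl12. Trem1 was closest to Tmem252, Tnfsfm13 and Yipf6, with r of 0.955, 0.951 and 0.947. Without both IL-27 replicate 1 and pMCS replicate 1 these fell to 0.774, 0.316 and 0.369. Without the same libraries the r of Prcp and Irf9 to Myd88 fell from 0.971 and 0.967 to 0.755 and 0.702. That of Il27ra to Myd88 fell to 0.899. These values describe 12 libraries that share groups, depth and cell content. Among the 10 genes themselves the 45 pairwise r ran from 0.15 to 0.95 with a median of 0.72. Over 11 libraries without IL-27 replicate 1 they ran from -0.12 to 0.93 with a median of 0.52.

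Promoter sequences of RefSeq (GRCm38.p6) were searched for GAGGAA, the core bound by the myeloid factor PU.1, as a description only. The 250 bases before the start were read on both strands, for 9 windows of 7 members. The motif was present in 3 of these 9 windows, those of Tlr9 and Trem1 and 1 of the 2 of Tlr1. By comparison, it was present in 23.3% of all 32851 promoter windows. A match is a description of letters and not a site. The 3 windows are shown 5′ to 3′ on the gene's strand with the motif in capitals, from chr5:64933559-64933808 (minus), chr9:106222348-106222597 (plus) and chr17:48232489-48232738 (plus).
Tlr1: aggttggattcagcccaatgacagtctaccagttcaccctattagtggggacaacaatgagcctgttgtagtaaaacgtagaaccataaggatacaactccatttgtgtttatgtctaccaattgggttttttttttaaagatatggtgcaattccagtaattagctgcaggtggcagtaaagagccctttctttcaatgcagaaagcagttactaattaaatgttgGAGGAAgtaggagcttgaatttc
Tlr9: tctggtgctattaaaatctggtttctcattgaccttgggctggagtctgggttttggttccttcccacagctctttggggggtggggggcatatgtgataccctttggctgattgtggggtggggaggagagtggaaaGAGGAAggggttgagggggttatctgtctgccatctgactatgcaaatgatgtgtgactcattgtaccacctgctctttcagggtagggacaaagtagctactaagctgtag
Trem1: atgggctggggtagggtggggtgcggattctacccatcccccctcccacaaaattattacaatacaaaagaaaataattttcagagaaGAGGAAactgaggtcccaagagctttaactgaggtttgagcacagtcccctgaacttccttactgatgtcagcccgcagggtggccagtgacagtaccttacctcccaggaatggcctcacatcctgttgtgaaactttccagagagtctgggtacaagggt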

How the data were processed

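The authors deposited whole-number gene counts for 12 tumor libraries. Per the methods, stranded poly(A) libraries, labelled total RNA, were read paired-end, trimmed with Cutadapt, checked with FastQC 0.11.3, and processed with HISAT2, StringTie, gffcompare and edgeR. For the build, annotation and counting step, nothing is given in the sources used here. The value 4 occurs 13036 times in the table, 3 occurs 3645 times and 5 occurs 2084 times, so 1 fragment may stand for several counts. Library totals ran from 49844915 to 76620862. Names, lengths and positions come from GENCODE M21.

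Counts were filtered with filterByExpr and scaled by TMM in edgeR 4.0.16 (R 4.3.3), and all 12 libraries entered 1 quasi-likelihood model with group terms. The model was also run on simulated counts. These had 1 spread for all genes and no library that stood apart, so they do not cover a library such as IL-27 replicate 1. Alternatives were RLE scaling, no filter, compared groups alone, a replicate block, the exact test, DESeq2 1.42.0, leukocyte or adipocyte and muscle covariates, and each library left out. Counts divided by 4 were added after seeing the data. The members and lists were chosen with earlier results of these data known. Named besides the members are genes with the smallest p in their list, and genes with the highest r to a member. Some genes these rules name are not reported here. Fold changes are printed for all members in IL-27 and for Cd14 and Trem1 elsewhere, a choice made after the alternatives were seen. The alternatives were run for all 60 fold changes, except compared groups alone and the exact test, run for the 50 against pMCS.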

Additional observations from a re-analysis of the deposited data

How the results depend on the processing

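The count of members past an adjusted p of 0.05 stayed 0 in every comparison under the alternatives run for it (compared groups alone and the exact test only against pMCS), except that without a filter on low counts it was 2 in IL-27 and 2 for any group (Tlr1 and Tlr9; Tlr9 log2 fold change 5.12, Tlr1 2.21) and that it ran from 0 to 1 in IL-27 with each library left out. At the threshold of the study the count without a filter was 5 in IL-27, 2 in 27→18, 1 in 27pepL→18 and 2 for the IL-27 forms, where 2212, 1256, 1409 and 1387 of all genes passed against 862, 471, 608 and 626 with the filter, and in IL-27 it was 1 by DESeq2 and 1 with the leukocyte covariate (Tlr1 in both, lower with the covariate). With each library left out it ran from 0 to 7 in IL-27 (7 without IL-27 replicate 2), 0 to 3 for the IL-27 forms and 0 to 1 in each other group (Trem1, without pMCS replicate 2, where the lone pMCS library is at 0 and the fitted size is no measure). The cause was not tested.

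In IL-27 against pMCS the leukocyte covariate turned the log2 fold change to -1.63 for Tlr1, -0.78 for Tlr2, -0.44 for Tlr4, -0.82 for Tlr6, -1.04 for Tlr3, -0.97 for Tlr7, -6.47 for Tlr9 and -0.14 for Myd88, and the adipocyte and muscle covariates to -0.08 for Tlr2 and -0.39 for Tlr3. These covariates are themselves highest in IL-27 replicate 1 (leukocyte, adipocyte). With each library left out the ranges were -1.48 to 3.15 for Tlr1, -0.76 to 1.13 for Tlr2, -0.35 to 1.29 for Tlr4, -0.72 to 2.48 for Tlr6, -1.07 to 1.21 for Tlr3, -0.72 to 2.41 for Tlr7, -6.74 to 11.9 for Tlr9 and -0.10 to 0.75 for Myd88. Over all 60 fold changes of the 10 genes in 6 comparisons, none past the adjusted threshold, the sign changed in 39 of 60 with the leukocyte covariate, 13 of 60 with the adipocyte and muscle covariates, 2 of 60 with the replicate block, 1 of 60 with counts divided by 4 and 44 of 720 with each library left out. It changed in 0 of 60 with RLE scaling, no filter and DESeq2 and in 0 of 50 with compared groups alone and the exact test.

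With the replicate block 0 members passed in every comparison (Cd14 in IL-27, log2 fold change 0.72), and over all genes 24 passed the adjusted threshold in 27→18, 28 in 27pepL, 24 in 27pepL→18, 69 for the IL-27 forms and 30 for any group, against 48, 52, 47, 106 and 55 without it. The labels do not say what libraries with the same number share beyond that number. Their deviations correlated at -0.28 to 0.34 over 15 pairs of groups, with 9 pairs at or below 0.1. Whether some groups share a batch was not tested.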
